A study of Mus musculus with 2 samples.

Results

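The interleukin-1 family genes described here are the ligands Il1a, Il1b, Il1f6, Il18 and Il33, the receptor antagonist gene Il1rn, the receptor genes Il1r1, Il1r2 and Il1rl1, and the inflammasome sensor gene Nlrp3. They were taken by symbol from both deposited matrices, which gave 10 of 32285 genes, and their levels were read in cell classes rebuilt from marker genes. The tissue was mouse kidney, dissociated and sequenced as single cells in droplets on day 14 after ischaemia and reperfusion, produced by clamping the renal artery on one side. Cre- mice (control) were compared with Cdh5-CreERT2; Phd3f/+ mice (haplodeficient), and both groups received 4 tamoxifen injections after the injury. CreERT2 is a tamoxifen-inducible recombinase, here driven in endothelium by the promoter of the cadherin gene Cdh5, and Phd3 (Egln3) encodes an oxygen-dependent prolyl hydroxylase. The comparison asks how the loss of an endothelial Phd3 copy bears on inflammation after kidney injury. The labels give no age, no number of animals in a library and no statement of whether control mice carry the floxed allele. Each group was 1 library, so the differences have no replicate check and no test between groups was possible.

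Interleukin-1 alpha and interleukin-1 beta bind the receptor encoded by Il1r1 and start inflammatory signalling through MyD88 and NF-kappaB. Interleukin-1 beta and interleukin-18 are made as precursors that caspase-1 cleaves inside the NLRP3 inflammasome, whereas interleukin-33 and interleukin-1 alpha act as alarm signals from damaged cells. The receptor antagonist occupies the interleukin-1 receptor without signalling, and the type II receptor binds the ligand as a decoy. In the injured kidney the family is known both from invading leukocytes and from tubule cells, and messenger RNA levels do not show cleavage or release of the proteins.

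The control library held 8737 and the haplodeficient library 9222 retained cells, with medians of 8762 and 5471.5 unique molecular identifiers (UMIs, counted transcripts). The median share of mitochondrial UMIs was 10.2% and 2.69%, and 28 barcodes occurred among the passing cells of both libraries. Levels are UMIs summed over the cells of a class, per 1000000 UMIs of the class (CPM), with exact Poisson 95% intervals in parentheses that cover counting error only. Endothelial-like cells held Egln3 at 24.9 CPM (18.1 to 33.4) in control and 23.3 CPM (18.9 to 28.3) in haplodeficient cells. The labels do not say which part of the gene is deleted, so this 3' tag does not check the genotype. Cells were named by marker genes: Cd3g was detected in 89.9% and 94.4% of T-cell-like cells, C1qa in 98.6% and 95.1% of macrophage-like cells and Pecam1 in 86.8% and 89.5% of endothelial-like cells. Ly6g, a neutrophil marker, was seen in only 2.91% and 3.88% of neutrophil-like cells, which carried S100a8 in 82.5% and 86.7%. Monocyte-like cells carried Plac8 in 96.4% and 95.5%, but Ly6c2 in only 17.9% and 24.5% and Ccr2 in 14.3% and 28.5%. Their leading genes included Adgre4, Treml4, Cd300e and Spn, so the name does not mean classical monocytes alone. A class that matched podocyte markers through Wt1 had Nphs1, the nephrin gene of podocytes, in 11.9% and 10.5% of its cells and was led by Tnc, Tagln and Cdh11, so it is called Wt1-led here. The descending thin limb-like class was named through 3 markers, Bst1, Fst and Slc14a2, with injured proximal tubule as its second match. Only Bst1 was widely detected, in 73.1% and 76.3% of its cells. Fst was seen in 20.9% and 26.7%, Slc14a2 in 33.5% and 29.5%, Aqp1 in 35.4% and 16.1% and Corin in 10.7% and 7.60%. In all, 16 named classes and 3 unnamed clusters had at least 50 cells in each library. In the whole-kidney suspension, a class can differ in share through fewer cells, through their survival of dissociation or through the cells retained, and these cannot be told apart.

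The genes lie in a few groups on the genome (GRCm38, GENCODE release M21). Il1a (ENSMUSG00000027399) occupies bases 129299610 to 129309972 of chromosome 2 and Il1b (ENSMUSG00000027398) bases 129364570 to 129371139, both on the minus strand and 54.6 kb apart. Il1f6 (24215418 to 24225702) and Il1rn (24336853 to 24351494) lie on the plus strand of the same chromosome, 111 kb apart. Il1r2, Il1r1, Il1rl2, Il1rl1, Il18r1 and Il18rap follow each other on the plus strand of chromosome 1 within 478 kb, from 40074079 to 40551705. Il18 is on chromosome 9 (50554827 to 50581840), Nlrp3 on chromosome 11 (59541568 to 59566956) and Il33 on chromosome 19 (29925114 to 29960718), all on the plus strand. An antisense gene, Il1bos, overlaps Il1b over 1243 bases. It had 9 and 87 UMIs in neutrophil-like cells, against 1804 and 14915 for Il1b.

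The promoters of Il1b and Il1a are shown because these neighbouring genes encode the 2 ligands of the same receptor and differed in level between classes. Each window runs from 250 bases before to 50 bases after the RefSeq start (build GRCm38.p6, minus strand, chr2:129371090-129371389 for Il1b and chr2:129309923-129310222 for Il1a). Capitals mark the TATA box motif TATAAA.
Il1b: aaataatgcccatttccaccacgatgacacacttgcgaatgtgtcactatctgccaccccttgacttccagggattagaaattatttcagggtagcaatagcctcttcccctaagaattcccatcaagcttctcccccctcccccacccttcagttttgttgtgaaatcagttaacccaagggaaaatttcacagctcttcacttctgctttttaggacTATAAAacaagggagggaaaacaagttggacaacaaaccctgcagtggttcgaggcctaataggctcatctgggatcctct
Il1a: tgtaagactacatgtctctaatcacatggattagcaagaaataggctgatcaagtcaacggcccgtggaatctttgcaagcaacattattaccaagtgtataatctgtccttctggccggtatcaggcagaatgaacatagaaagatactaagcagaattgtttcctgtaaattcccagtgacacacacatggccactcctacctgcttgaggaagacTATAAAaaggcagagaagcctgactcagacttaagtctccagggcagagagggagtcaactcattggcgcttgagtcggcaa
The motif begins 31 bases before the start in Il1b and 32 bases before it in Il1a, in the direction of transcription. Of all 32851 RefSeq promoter windows, 13.6% held TATAAA on either strand. The table held 15 windows for 9 of the 10 genes, all but Il1f6, and 6 of the 15 held it. The same windows of Il1b and Il1a held no match to GAGGAAGT (PU.1), TTGCNNAA (C/EBP) or the NF-kappaB consensus, which 3.20%, 10.8% and 4.51% of all windows held.

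Across classes, the family split into a myeloid group (Il1a, Il1b, Il1rn, Il1r2, Nlrp3), a distal tubule gene (Il1f6), a stromal and capillary gene (Il33), a receptor shared by tubule, stroma and T cells (Il1r1), a receptor of few cells (Il1rl1) and a gene at low level in many classes (Il18). Neutrophil-like, monocyte-like, dendritic-cell-like and macrophage-like cells together with a cluster led by Wdfy4 and Xcr1 held 96.6% of control and 97.6% of haplodeficient Il1b UMIs. For Nlrp3 these cells held 95.3% and 97.8%, for Il1r2 95.2% and 94.7%, and for Il1a 93.3% and 96.4%. For Il1rn they held less in control, 74.0% and 91.2%. For Il1f6 they held 0.208% and 0.571%. The heatmap of levels by class shows these blocks in both libraries. The Wdfy4-led cluster matched dendritic cell markers best but stayed unnamed, since it also carried markers of a second class at a median of 10837 UMIs. Its second match was macrophage, and Hist1h1b, Hist1h2ap and Top2a, genes of dividing cells, were among its leading genes. Whether its barcodes mixed cell types was not tested.

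The number of members that differed was counted by a rule of size. A gene was eligible in a class when its level averaged 50 CPM or more and both libraries together gave 30 or more UMIs, and it counted as higher or lower with an absolute log2 ratio of at least 1 (after adding 5 CPM to each level) and Poisson intervals that did not overlap. Of 160 pairs of a member and a named class, 25 were eligible, and Il18 was eligible in none. Of the 25, 2 were higher and 3 lower in haplodeficient cells. Over all genes, 2.04% of 53770 eligible pairs were called, 0.813% as higher and 1.23% as lower. The median log2 ratio was 0.11 over the members' 25 pairs and 0.03 over all 53770. The 5 called pairs were Il1a in neutrophil-like, Il1a in dendritic-cell-like, Il1r2 in dendritic-cell-like, Il1f6 in principal or connecting tubule-like and Il1b in fibroblast-like cells. The last of these rests on 2 control cells. With likely doublets kept, 5 pairs were called again, but 5 as higher and 0 as lower, and 2 of them were among the original pairs.

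**Figure D1:**
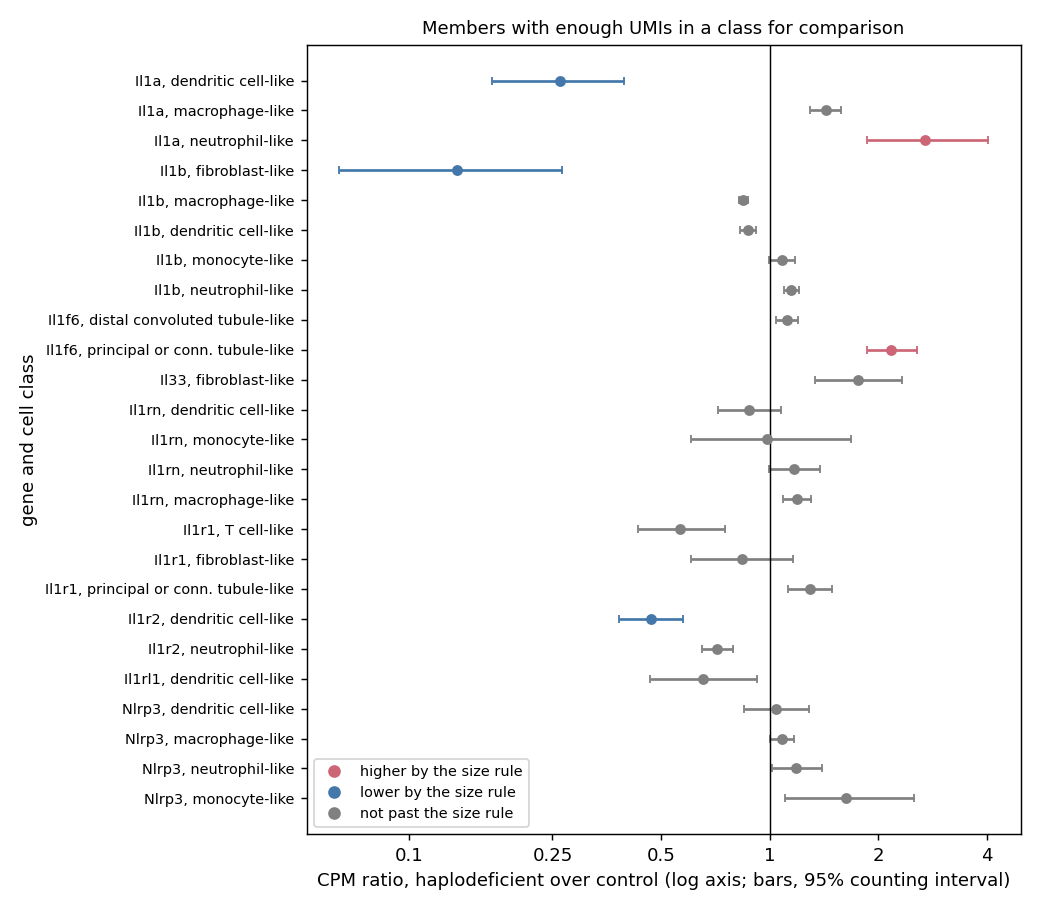
CPM ratio of haplodeficient over control (log axis) for the 25 eligible pairs of a member and a named class, with 95% intervals for counting error, coloured by the size rule. Only Il1a in neutrophil-like cells and Il1f6 in principal or connecting tubule-like cells were higher by the rule, and 3 pairs were lower.

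Il1b, the gene of the secreted interleukin-1 beta, was most concentrated in neutrophil-like cells, at 10928 CPM (10430 to 11444) in control and 12549 CPM (12348 to 12752) in haplodeficient cells. Monocyte-like cells followed at 2450 CPM (2261 to 2651) and 2647 CPM (2574 to 2722), and dendritic-cell-like cells at 2605 CPM (2500 to 2713) and 2271 CPM (2200 to 2344). The intervals of these classes overlapped each other in control, and in the haplodeficient library monocyte-like cells stood above dendritic-cell-like cells. Macrophage-like cells came next at 1474 CPM (1440 to 1509) and 1246.5 CPM (1224 to 1269), above the Wdfy4-led cluster at 870.2 CPM (811 to 933) and 738 CPM (694 to 785). Within each class the libraries differed by less than the size rule asks, with log2 ratios of 0.20 in neutrophil-like, 0.11 in monocyte-like, -0.20 in dendritic-cell-like and -0.24 in macrophage-like cells. The dendritic-cell-like value was 0.11 with likely doublets kept and 0.30 with each cell classed alone. With cells thinned to 1000 UMIs, Il1b was detected in 92.7% and 91.6% of neutrophil-like and in 49.6% and 43.4% of macrophage-like cells.

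The macrophage-like class was made of clusters with different Il1b levels. The cluster led by Ccl12, Ccl8 and Ccl7, which encode monocyte-attracting chemokines, held Il1b at 2148 CPM in control and 2206 CPM in haplodeficient cells. The cluster led by Gpnmb, Fabp5 and Trem2, genes of lipid-handling macrophages, held it at 587 and 605 CPM. A small cluster led by Aif1 and Pf4 held it at 543 and 112 CPM, from 23 and 26 UMIs, and made up 6.12% and 14.8% of the class. Neither of the larger clusters was lower in the haplodeficient library, while the Ccl12-led cluster made up 71.9% of control and 54.2% of haplodeficient macrophage-like cells. The Gpnmb-led cluster made up 21.9% and 30.9%. Both libraries at the same cluster weights gave a log2 ratio of -0.0032 in place of -0.24.

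Over all retained cells, by contrast, Il1b stood at 121 CPM in control and 400.2 CPM in haplodeficient cells, a ratio of 3.30 (3.24 to 3.37). The classes that hold it were more frequent in the haplodeficient library. Neutrophil-like cells numbered 103 of 8737 and 618 of 9222, monocyte-like cells 56 and 376, and macrophage-like cells 784 and 1335. Proximal tubule-like cells numbered 3132 and 378. With every class kept at its share of UMIs in the control library, the ratio for Il1b was 0.938, and with the haplodeficient shares it was 0.994. Neutrophil-like cells held 13.9% of Il1b UMIs in control and 39.8% in the haplodeficient library, and macrophage-like cells 53.7% and 31.7%.

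**Figure D2:**
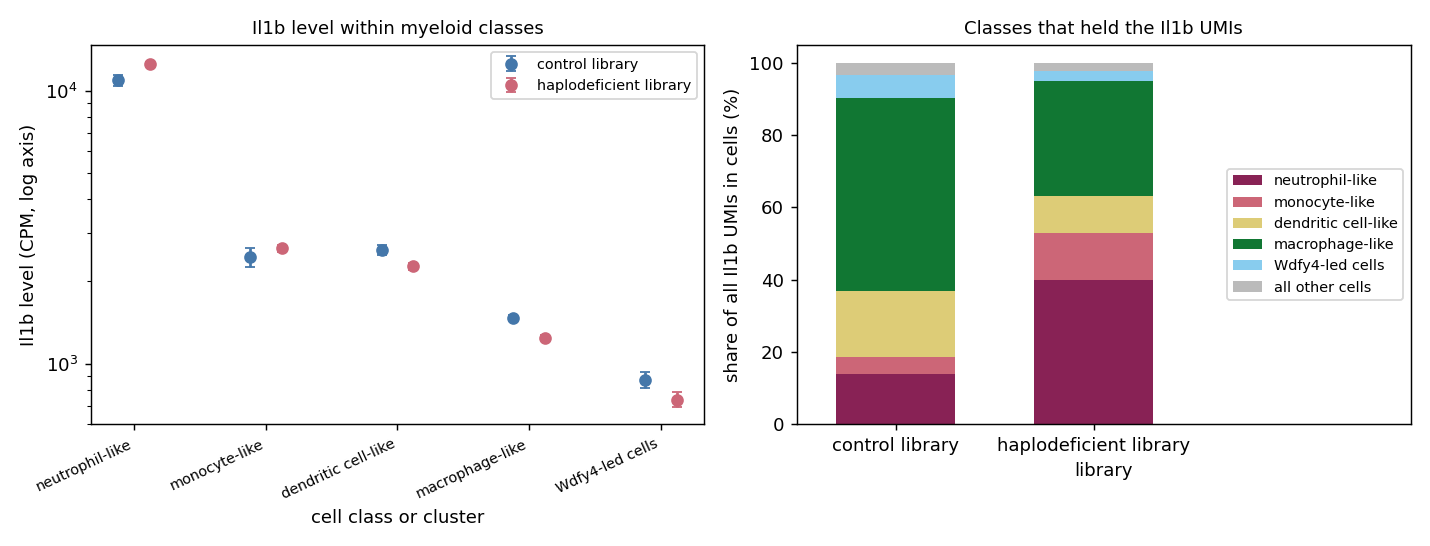
Left, Il1b level (CPM, log axis, bars are 95% Poisson intervals) in 4 myeloid classes and the Wdfy4-led cluster of both libraries. Right, the share of all Il1b UMIs held by each of them. Levels within a class lay close together, while neutrophil-like cells held 13.9% of Il1b UMIs in control and 39.8% in the haplodeficient library.

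The same reading for the other members gave ratios over all cells of 3.71 for Il1a, 2.97 for Il1rn, 4.13 for Il1r2, 3.56 for Nlrp3, 3.35 for Il1rl1, 2.55 for Il33, 1.92 for Il1r1, 1.81 for Il18 and 1.25 for Il1f6. At the control class shares these became 1.40, 1.09, 0.751, 1.17, 1.29, 1.56, 1.39, 1.24 and 1.20, in the same order. The decoy receptor gene Il1r2 thus had the highest ratio over all cells and the lowest with class shares held fixed. For Il1f6 the value over all cells and the value at fixed shares lay within the same counting interval (1.19 to 1.32).

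**Figure D3:**
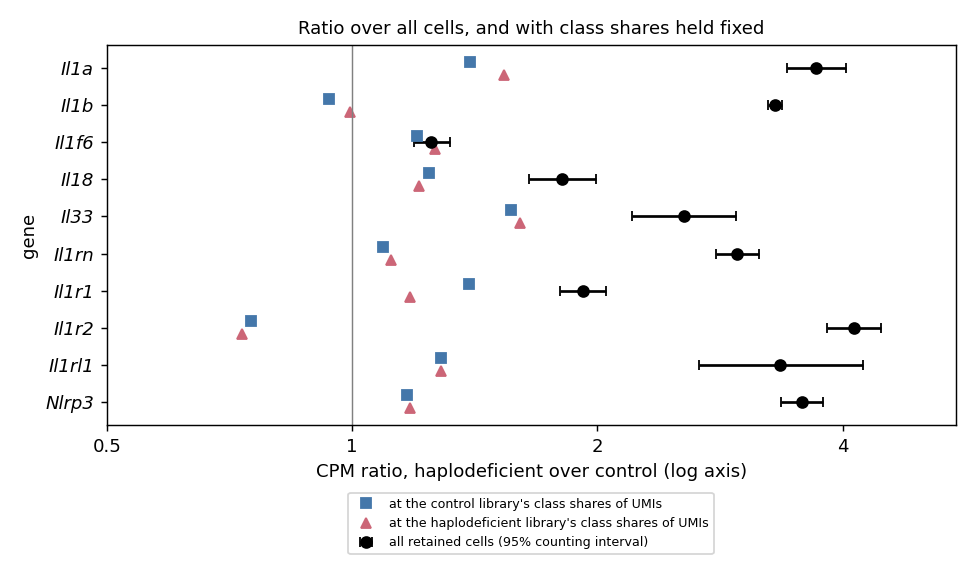
CPM ratio of haplodeficient over control for each gene (log axis): over all retained cells with 95% counting intervals, and with the class shares of UMIs held at those of either library. With shares held fixed, 8 of the 10 genes lay between 1.09 and 1.61, Il1b at 0.938 and 0.994, and Il1r2 at 0.751 and 0.734.

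Il1a, whose product acts in and on the cell without cleavage by caspase-1, was the ligand gene called in myeloid classes. In neutrophil-like cells it stood at 182 CPM (123 to 259) in control, from 30 UMIs in 17 of 103 cells, and at 490 CPM (451 to 531) in haplodeficient cells, from 582 UMIs in 183 of 618 cells. The ratio was 2.69 (1.87 to 4.03) and the log2 ratio 1.41, and no single cell held more than 17 UMIs. In this class 1.90% of 2893 eligible genes were higher by the rule. Thinned to 1000 UMIs, 10.4% (5.11 to 18.3) of control and 22.7% (19.4 to 26.4) of haplodeficient neutrophil-like cells had an Il1a UMI. The estimated free-RNA part of these UMIs was below 1% in both libraries (0.236% and 0.184%).

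In macrophage-like cells Il1a stood at 111 CPM (101 to 121) and 158 CPM (150 to 166), a ratio of 1.43 that the size rule does not count. It was higher in the haplodeficient library in the Ccl12-led cluster (86.5 and 140 CPM) and in the Gpnmb-led cluster (144 and 177 CPM). The Wdfy4-led cluster had 60.8 and 108 CPM. Dendritic-cell-like cells went the other way, with 81.4 CPM (63.8 to 102) in control and 21.3 CPM (14.9 to 29.5) in haplodeficient cells, a log2 ratio of -1.72. Those values rest on 73 UMIs in 19 of 114 control cells, 20 of them in 1 cell, and on 36 UMIs in 18 of 199 haplodeficient cells. In this class 1.24% of 2818 eligible genes were lower by the rule. When each cell was classed from its own markers, Il1a was higher in the haplodeficient dendritic-cell-like cells, with a log2 ratio of 0.32, so the direction depended on which cells were counted as dendritic. With likely doublets kept it was -1.02 and was no longer called, since another condition of the rule was not met. The class was led by Retnla, Ccl17 and Cd209a, and Flt3, a defining dendritic cell gene, was detected in 20.2% and 18.1% of its cells.

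In fibroblast-like cells Il1b was called lower, at 88.6 CPM (66.0 to 117) in control and 12.1 CPM (6.03 to 21.6) in haplodeficient cells. The control value rests on 51 UMIs in 2 of 110 cells, 49 of them in a single cell. Without that cell 2 UMIs remained, and with likely doublets kept the log2 ratio was 0.011 in place of -2.45. With the expected free-RNA UMIs subtracted it was -3.99, but the other conditions of the rule were not all met. In fibroblast-like cells 2.06% of 3401 eligible genes were lower by the rule.

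Free RNA in the droplets carried these genes as well. In barcodes of 1 to 100 UMIs, Il1b stood at 84.9 CPM (77.9 to 92.3) in control barcodes and 437 CPM (419 to 455) in haplodeficient ones. In T-cell-like, endothelial-like and tubular classes Il1b stood between 0.906 and 33.5 CPM, and the estimated free-RNA part of it was 55.3% to 100%. That estimate is made from class sums and takes no account of the spread over cells. In haplodeficient T-cell-like cells it was 85.3%, yet the 38 Il1b UMIs lay in 6 of 1038 cells, 33 of them in 1 cell. The range is thus not a measured share of free RNA. Endothelial-like cells had 19 and 144 Il1b UMIs, in 7 of 272 and 21 of 639 cells, and 52 of the 144 came from 1 cell. For Il1b in neutrophil-like and macrophage-like cells the free-RNA part was at most 1.03%.

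Il1rn, the receptor antagonist gene, was held mainly by the myeloid classes, with low levels in tubular classes. It stood at 1006 CPM (858 to 1171) and 1174 CPM (1113 to 1237) in neutrophil-like cells, at 181 and 159 CPM in dendritic-cell-like cells, at 146 and 173 CPM in macrophage-like cells and at 75.2 and 74.0 CPM in monocyte-like cells. No pair passed the size rule, and among these classes only the macrophage-like ratio of 1.19 (1.09 to 1.30) had a counting interval that left out 1. Injured proximal tubule-like cells held 14.7 and 13.6 CPM and distal convoluted tubule-like cells 14.8 and 12.3 CPM. The free-RNA part there was 4.38% to 19%.

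Nlrp3, which senses damage and assembles the inflammasome, was highest in neutrophil-like cells at 1072 CPM (920 to 1242) and 1271 CPM (1208 to 1337). Macrophage-like cells held 207 and 224 CPM, dendritic-cell-like cells 155 and 162 CPM and monocyte-like cells 107 and 174 CPM. None passed the size rule, and the monocyte-like value in control came from 27 UMIs. In the Wdfy4-led cluster Nlrp3 stood at 89.0 CPM (70.8 to 110) and 181 CPM (159 to 205), a log2 ratio of 0.98. Within macrophage-like cells it was 260 and 324 CPM in the Ccl12-led cluster and 140 and 161 CPM in the Gpnmb-led cluster. Across 16 classes in both libraries (32 points that share libraries and depths) the genes most like Il1b in log level were Ptafr, a lipid mediator receptor (Pearson's r = 0.986), Nlrp3 (r = 0.984) and Clec4n, a lectin receptor (r = 0.984), of 19171 genes ranked.

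Il1r2, the decoy receptor gene, was held mainly by neutrophil-like cells, at 2956 CPM (2700 to 3230) in control and 2117 CPM (2035 to 2201) in haplodeficient cells. The ratio was 0.716 (0.650 to 0.791), short of the size rule. Thinned to 1000 UMIs, 81.2% (72.0 to 88.5) of control and 68.4% (64.4 to 72.2) of haplodeficient neutrophil-like cells carried it. In dendritic-cell-like cells it was lower by the rule, at 229 CPM (198 to 262) and 107 CPM (92.1 to 124), a log2 ratio of -1.06. The Wdfy4-led cluster had 73.8 and 20.9 CPM. Monocyte-like cells had 7.92 CPM from 2 UMIs in control and 65.9 CPM from 123 UMIs in 25 of 376 haplodeficient cells, a ratio of 8.33 with a counting interval of 2.26 to 69.6. The dendritic-cell-like log2 ratio was -0.74 with likely doublets kept and -0.95 with median-of-ratios scaling, past the rule no longer in either.

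Il1r1, the signalling receptor gene, was found in stroma, T cells and tubule. Fibroblast-like cells held it at 118 CPM (91.8 to 150) in control and 98.9 CPM (79.5 to 122) in haplodeficient cells. T-cell-like cells held 126 CPM (98.2 to 159) and 71.1 CPM (62.2 to 81.0), a ratio of 0.566 (0.432 to 0.750). Most of it came from a cluster led by Il17a, Trdc and Cd163l1, genes of interleukin-17-producing gamma delta T cells, with 586 CPM (439 to 766) in 23 control cells and 401 CPM (339 to 471) in 118 haplodeficient cells. The cluster of the other T cells, led by Ms4a4b, Trbc2 and Cd3g, had 43.8 and 30.1 CPM.

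In the distal nephron beyond the thick ascending limb, the Il1r1 level was higher in the haplodeficient library in 3 groups of cells. None of them passed the size rule. Principal or connecting tubule-like cells had 56.3 CPM (50.5 to 62.7) and 72.9 CPM (66.7 to 79.6). A cluster led by Slc26a4 and Atp6v1g3, which encode a bicarbonate exchanger and a proton pump subunit of intercalated cells, had 43.7 and 70.7 CPM. That cluster stayed unnamed, since it also carried markers of principal or connecting tubule cells at a median of 28797 UMIs. The intercalated-cell-like class had a median of 9089.5 UMIs. Whether barcodes of the Slc26a4-led cluster mixed cell types was not tested. Distal convoluted tubule-like cells had 20.6 CPM (17.6 to 24) and 50.8 CPM (45.2 to 56.8), a ratio of 2.46 (2.03 to 2.99) in a pair whose mean lay below the 50 CPM needed. Intercalated-cell-like cells had 42.4 and 49.8 CPM, with overlapping intervals. Endothelial-like cells, the class in which the Cre is driven, had 36.2 CPM (27.9 to 46.3) and 29.6 CPM (24.6 to 35.2). The higher Il1r1 level was not confined to those distal segments. Thick ascending limb-like cells and pericyte or smooth muscle-like cells also had more in the haplodeficient library, both with a mean below the 50 CPM needed.

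Il1f6, which encodes interleukin-36 alpha, an epithelial ligand of the receptor encoded by Il1rl2, was a tubular gene. Distal convoluted tubule-like cells held 64.5% of its UMIs in control and 48.2% in the haplodeficient library. Its level there was 227 CPM (216 to 237) in control and 253 CPM (241 to 266) in haplodeficient cells, a ratio of 1.12 (1.04 to 1.20). With a limit of 25% mitochondrial UMIs in place of 50% the log2 ratio was -0.084 in place of 0.16. The median mitochondrial share of these cells was 13.8% in control and 5.91% in the haplodeficient library. With mitochondrial UMIs left out of the denominator the log2 ratio was 0.028.

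Its spread over distal convoluted tubule-like cells differed more than its level. An Il1f6 UMI was found in 161 of 582 control cells (27.7%) and in 176 of 364 haplodeficient cells (48.4%), at median depths of 11154.5 and 9989 UMIs. Macrophage-like cells, which should lack the gene, had one in 0.638% and 0.375% of cells at median depths of 4811 and 5371 UMIs. Thinned to 5000 UMIs, the distal convoluted tubule-like shares were 23.2% (19.5 to 27.3) and 38.1% (32.5 to 44.0), and thinned to 1000 UMIs they were 11% and 11.1%. The tenth of cells with most Il1f6 held 83.3% of its UMIs in control and 65.9% in the haplodeficient library, and the highest cells had 142 and 94 UMIs. Cells with 20 or more UMIs numbered 24 of 582 and 17 of 364, and those with 1 to 4 numbered 77 and 94. Fewer control cells held the gene, and more of its UMIs lay in the highest cells.

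The other tubular classes differed among themselves. Principal or connecting tubule-like cells had 37.2 CPM (32.5 to 42.5) in control and 81.0 CPM (74.4 to 88) in haplodeficient cells, higher by the rule with a log2 ratio of 1.03, where 0.886% of 3725 eligible genes were higher. Of the 554 haplodeficient UMIs, 182 lay in 4 cells. The call was lost with mitochondrial UMIs left out of the denominator, at a log2 ratio of 0.97. It was also lost with each cell classed alone, where the log2 ratio was 1.67 but another condition of the rule was not met. Thinned to 5000 UMIs, 6.72% (4.4 to 9.76) of control and 17.4% (13.9 to 21.4) of haplodeficient cells of this class had the gene. Descending thin limb-like cells had 5.09 and 32.6 CPM, from 31 and 289 UMIs, and the Slc26a4-led cluster had 13.5 and 29.3 CPM, both below the level needed for the rule. Thick ascending limb-like cells had 19.2 CPM (17.1 to 21.4) and 20.1 CPM (18.2 to 22.1), with overlapping intervals, and injured proximal tubule-like cells had 17.9 and 5.90 CPM. Proximal tubule-like cells held 0.327 and 0.200 CPM.

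**Figure D4:**
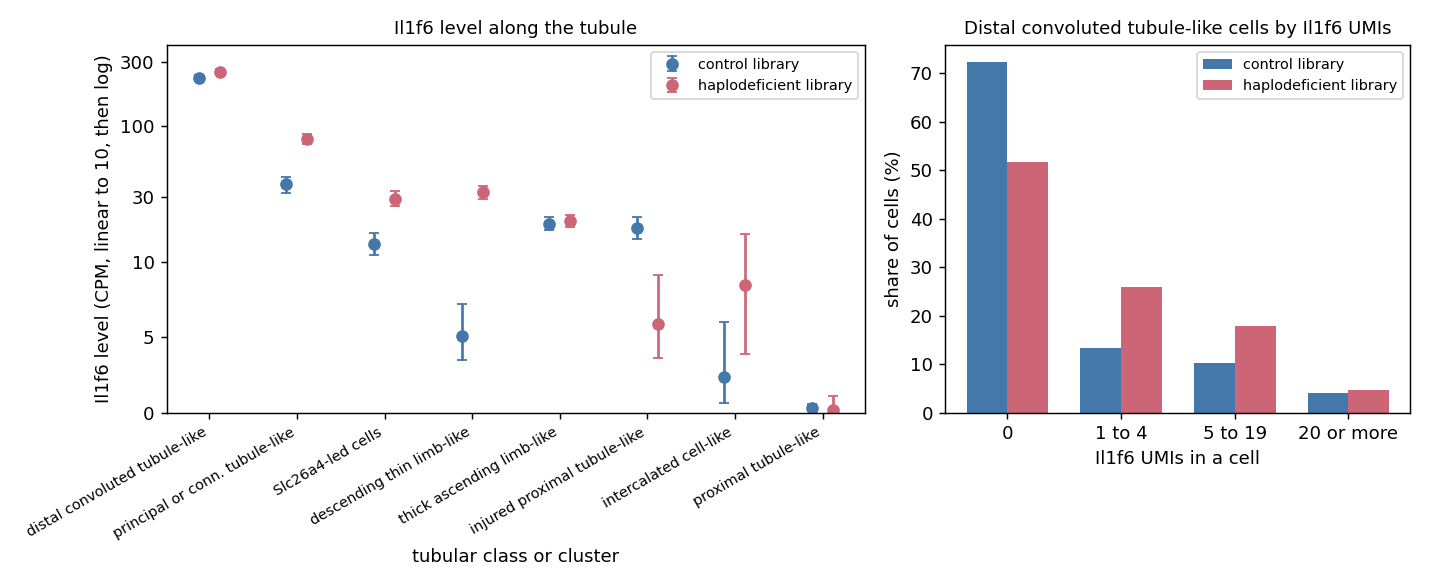
Left, Il1f6 level in tubular classes (CPM, axis linear to 10 and then logarithmic, bars are 95% Poisson intervals) of both libraries. Right, the share of distal convoluted tubule-like cells with 0, 1 to 4, 5 to 19 and 20 or more Il1f6 UMIs. Distal convoluted tubule-like cells had the highest level, 227 and 253 CPM, and principal or connecting tubule-like cells, at 37.2 and 81.0 CPM, were higher by the size rule.

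Most markers of the distal convoluted tubule-like and the principal or connecting tubule-like class moved as well. Pvalb, a gene of the early distal convoluted tubule, was detected in 29.9% of control and 2.20% of haplodeficient distal convoluted tubule-like cells, and Aqp2, the vasopressin-regulated water channel gene, in 68.4% and 25.2% of principal or connecting tubule-like cells. Slc12a3, the thiazide-sensitive cotransporter gene, was detected in 86.4% and 78.8% of distal convoluted tubule-like cells, at 2609 and 917 CPM. Detection of Abca13 (71.8% and 47.0%) and Aqp3 (52.3% and 19.9%) was lower too. So was that of Trpm6 (71.6% and 65.9%), Emx1 (68.7% and 59.6%), Scnn1b (75.1% and 63.7%), Scnn1g (63.6% and 50.1%) and Avpr2 (35.0% and 23.4%). Only Tmem52b (93.1% and 94.2%), Fxyd4 (90.5% and 91.6%) and Hsd11b2 (81.9% and 79.3%) changed little in detection. In level, Tmem52b stood at 960 and 699 CPM, Hsd11b2 at 1854 and 1162 CPM and Fxyd4 at 1620 and 1766.5 CPM. The part of these marker differences in the Il1f6 and Il1r1 values was not tested. Il1rl2, the receptor gene for interleukin-36, stood at 55.6 CPM (32 UMIs) and 28.6 CPM (26 UMIs) in fibroblast-like cells and at 23.4 and 21.9 CPM in dendritic-cell-like cells. It stood at 0.977 and 2.50 CPM in distal convoluted tubule-like cells. The genes most like Il1f6 across classes were 9630001P10Rik (r = 0.896), Klhl31 (r = 0.895) and Gm42791 (r = 0.894), over the same 32 points.

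Il33, the nuclear alarmin gene, was highest in fibroblast-like and endothelial-like cells among the compared classes. Of its UMIs, the fibroblast-like class had 27.5% in control and 34.3% in the haplodeficient library, and the endothelial-like class 20.8% and 37.7%. Proximal tubule-like cells had 14.3% and 1.86%, and the few urothelium-like cells 11.7% and 3.55%. Fibroblast-like cells held 127 CPM (99.5 to 160) in control, from 73 UMIs in 110 cells, and 223 CPM (193 to 256) in haplodeficient cells, from 203 UMIs in 118 cells. The ratio was 1.76 (1.34 to 2.33). Endothelial-like cells held 31.1 CPM (23.5 to 40.5) and 51.9 CPM (45.3 to 59.2), a ratio of 1.67 (1.24 to 2.28). Neither passed the size rule, although the intervals of the libraries did not overlap in either class. With likely doublets kept, the fibroblast-like log2 ratio was 1.06 and passed it. Thinned to 1000 UMIs, 8.18% (3.81 to 15) and 19.5% (12.8 to 27.8) of fibroblast-like cells had the gene.

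Among endothelial-like cells Il33 lay in the capillary cluster led by Plvap and Rgcc, at 66.1 CPM (49.5 to 86.4) in 178 control cells and 95.9 CPM (83.6 to 110) in 462 haplodeficient cells. The cluster led by Ehd3 and Kdr, genes of glomerular endothelium, had 2 and 4 UMIs, and the cluster led by Stmn2, Fbln5 and Fbln2, genes of large vessels, had none in 54 and 75 cells. The Plvap-led cluster made up 65.4% and 72.3% of the class, and at the same cluster weights the endothelial-like log2 ratio was 0.48 in place of 0.65. The genes most like Il33 across classes were Bean1 (r = 0.980), Sema3d, a guidance factor gene (r = 0.978), and Adamts7, a matrix protease gene (r = 0.970).

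Il1rl1 encodes ST2, the receptor for interleukin-33, and was found in few cells. Dendritic-cell-like cells held it at 72.5 CPM (55.9 to 92.4) in control and 47.3 CPM (37.5 to 58.9) in haplodeficient cells. T-cell-like cells held 23.0 CPM (12.3 to 39.4) from 13 UMIs in 6 of 178 control cells and 49.2 CPM (41.8 to 57.5) from 157 UMIs in 50 of 1038 haplodeficient cells, below the level needed for the rule. The haplodeficient cells with an Il1rl1 UMI carried Areg, the gene of a tissue repair growth factor, in 80.0% of cases, Foxp3, the regulatory T cell factor gene, in 42.0% and Gata3 in 54.0%. In the 988 cells without one these shares were 9.31%, 1.42% and 16.3%, at median depths of 3221.5 and 2554 UMIs. Of the 6 control cells, 3 carried Areg, 2 Foxp3 and 5 Gata3. Endothelial-like cells had no Il1rl1 UMI in 272 and 639 cells, which allows up to 1.70 and 0.698 CPM at 3 UMIs. The genes most like Il1rl1 across classes were Klrd1 (r = 0.963), Gm15232 (r = 0.942) and F2rl2 (r = 0.934), a description that rests on its 2 main classes.

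Il18 stayed at low level in every class. Monocyte-like cells held 31.7 CPM (13.7 to 62.4) from 8 UMIs and 56.8 CPM (46.5 to 68.7) from 106 UMIs, dendritic-cell-like cells 23.4 and 39.0 CPM and macrophage-like cells 26.7 CPM (22.3 to 31.8) and 32.7 CPM (29.1 to 36.5). The Wdfy4-led cluster held 58.6 and 32.4 CPM. Outside the leukocytes, Wt1-led cells had 31.0 and 30.8 CPM, intercalated-cell-like cells 10.0 and 20.7 CPM, and proximal tubule-like cells 2.79 and 5.21 CPM. Zfp992 (r = 0.783), Ifi30 (r = 0.770) and Csf2ra (r = 0.768) were the genes most like it.

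Lists of other genes of the pathway were read by the same rule. Over all genes, 2.04% of eligible pairs were called, 0.813% as higher and 1.23% as lower. Among 4 other ligand genes, only Il1f9, the gene of interleukin-36 gamma, was eligible, with 297 and 379 CPM in neutrophil-like cells and no call. Among 6 receptor and binding protein genes, 7 pairs were eligible and 1 was called: Il18rap, a subunit of the interleukin-18 receptor, lower in T-cell-like cells at 95.6 CPM (71.8 to 125) and 41.7 CPM (34.9 to 49.4). In T-cell-like cells 1.54% of 3121 eligible genes were lower by the rule. Il1rap, the shared accessory subunit, stood at 666 and 409 CPM in neutrophil-like cells and was not called. Of 70 eligible pairs of 12 inflammasome genes, 2.86% were called, near the 2.04% over all genes. Pycard, the inflammasome adaptor gene, was higher in intercalated-cell-like cells (60.1 and 131 CPM, in a class where 1.69% of 3669 eligible genes were higher). Txnip was lower in proximal tubule-like cells (128 and 52.3 CPM), where 1.75% of 3022 eligible genes were lower. None of 61 eligible pairs of 15 signalling genes was called.

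Among 13 feedback and response genes, which interleukin-1 and other signals induce, 103 pairs were eligible, with 12 higher and 4 lower. The called share was 15.5%, against 2.04% over all genes. In the classes with such calls, 0.239% to 1.78% of all eligible genes were higher where calls were higher. Where calls were lower, 0.505% to 1.72% were lower. The median log2 ratio over the 103 pairs was 0.15. Lcn2, a tubular injury gene, was higher in 4 tubular classes, for example in distal convoluted tubule-like cells at 1749 and 3604 CPM and in descending thin limb-like cells at 833 and 1776 CPM. Cxcl2, a neutrophil-attracting chemokine gene, was called higher in principal or connecting tubule-like cells at 90.2 CPM (82.7 to 98.2) and 384 CPM (370 to 399), in descending thin limb-like cells at 190 and 503 CPM, and in monocyte-like cells at 281 and 869 CPM. Cxcl1, of the same kind, was also called higher in principal or connecting tubule-like cells (53.3 and 119 CPM) and in Wt1-led cells (96.4 and 201 CPM). In intercalated-cell-like cells Cxcl1 stood at 22.4 and 222 CPM and Cxcl2 at 2.95 and 237 CPM, detected in 10.3% and 9.35% (Cxcl1) and in 2.86% and 10.3% (Cxcl2) of cells. This class had 175 and 107 cells, so its Cxcl1 and Cxcl2 values rest on few cells. Ccl2, a monocyte-attracting chemokine gene, was higher in dendritic-cell-like cells (54.6 and 125 CPM) and lower in descending thin limb-like cells (153 and 55.0 CPM) and Wt1-led cells (296 and 89.3 CPM). Ptgs2 was lower in dendritic-cell-like cells (278 and 117 CPM), and Saa3 in monocyte-like cells (328 and 101 CPM). Among 11 genes of interleukin-33-responsive cells, Areg was the 1 called of 22 eligible pairs, higher in T-cell-like cells at 112 CPM (85.7 to 143) and 244 CPM (228 to 262). In T-cell-like cells 0.801% of 3121 eligible genes were higher by the rule.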

How the data were processed

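The deposited values were raw UMI counts for each gene in each barcode, which the authors produced with Cell Ranger 4, per the file headers. The build was mm10, per the submitters' processing notes, and 32158 of 32285 gene identifiers matched GENCODE M21. The 10 genes, the gene lists and the marker lists were chosen with earlier results of these data known. All 32285 features were genes; hashtags, which the labels' protocols mention, were not used here.

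Barcodes passed with 500 UMIs or more, 200 genes or more and no more than 50% mitochondrial UMIs (9452 in control, 10026 in the haplodeficient library, of 134190236 and 114668145 library UMIs). The highest Scrublet scores (scanpy 1.11.5), 0.8% per 1000 cells, were left out as likely doublets (715 and 804). Both libraries were clustered together on 2000 variable genes without members and pathway genes, 30 principal components and 15 neighbours (Leiden, leidenalg 0.10.2, resolution 1; 35 clusters). A class needed 3 or more of its markers, and at least 50% of them, in at least 10% of cells and 2-fold or more above the remaining cells, and clusters whose leading genes or depth pointed to another class stayed unnamed. The 50% share was set after the clusters were seen. Named genes were all members, the called and highest-level genes of the lists, and the 3 genes most like each of 5 members.

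UMIs were summed per class and library, which gives levels per 1000000 UMIs. Shares have exact Clopper-Pearson 95% intervals and ratios exact conditional binomial ones (scipy 1.17.1). Intervals describe counting error alone. The free-RNA profile came from barcodes holding 1 to 100 UMIs (6363410 and 5499352 UMIs), and its part in a class was scaled by markers of other classes. With 1 library per group no test was run. Alternatives covered the filters, doublets, clustering, class assignment, scaling, the added CPM and free RNA.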

Additional observations from a re-analysis of the deposited data

Results flagged for a closer look

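Il1a differed in opposite directions in 2 classes of the same libraries: its log2 ratio was 1.41 in neutrophil-like cells and -1.72 in dendritic-cell-like cells. The difference between the classes was not tested, since each group was 1 library, and the dendritic-cell-like value changed sign with cells classed one by one.

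Barcodes of 1 to 100 UMIs, which lie outside the retained cells, held more Il1b and Il1rn in the haplodeficient than in the control library. Il1b stood at 437 CPM against 84.9 CPM, and Il1rn at 51.1 CPM (45.3 to 57.4) against 12.7 CPM (10.1 to 15.8).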

How the results depend on the processing

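The 5 main results were recomputed under up to 14 alternatives, 1 of them (mitochondrial UMIs left out of the denominator) chosen after seeing the data. Values are log2 ratios. Il1b in macrophage-like cells (-0.24) was -0.30 when each cell was classed alone, -0.49 with each library clustered on its own and -0.0032 at the same cluster weights. Il1b in neutrophil-like cells (0.20) was 0.36 with median-of-ratios scaling. Il1f6 in distal convoluted tubule-like cells (0.16) was -0.084 with a mitochondrial limit of 25%, -0.0021 at resolution 2, 0.75 with each cell alone and 0.028 without mitochondrial UMIs. Il33 in endothelial-like cells (0.65) was 1.13 with likely doublets kept and 1.81 with each library clustered on its own. The number of called pairs (5) was 3 at resolution 2 and 3 with each library clustered on its own, 11 when a mean of 10 CPM and 10 UMIs sufficed, and 14 with no filter. It was 5 again with doublets kept, all higher, of which 2 were among the original pairs. Il1a in dendritic-cell-like cells was 0.32 with each cell alone, and Il1b in fibroblast-like cells 0.011 with doublets kept. The cause of these shifts was not tested. Il1a in neutrophil-like cells passed the rule in 14 of 14 settings (1.36 to 1.56), and Il1f6 in principal or connecting tubule-like cells in 12 of 14 (0.97 to 1.67). Some of these settings could not change either result. The looser eligibility filters leave a called pair called, and the same cluster weights alter nothing in a class made of a single cluster. The dendritic-cell-like class was not formed at resolution 2 or with each library clustered on its own, so those settings gave it no value. No paired analysis was possible because each group had 1 library. The control values rest on 103 neutrophil-like and 56 monocyte-like cells.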

Other observations

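Other cells with too few barcodes for comparison carried members as well. A cluster of dividing cells led by Cenpf and Ube2c (36 cells in each library) held Il1f6 at 217 CPM (188 to 250) in control and 69.4 CPM (53.7 to 88.3) in haplodeficient cells. A single cell held 91 of the 196 control Il1f6 UMIs, and another 30 of the 66 haplodeficient ones. The same cells held Il1rn at 62.1 CPM from 56 UMIs, 33 of them in 1 cell, and at 4.21 CPM from 4 UMIs. Urothelium-like cells, 17 and 24 in number, held Il33 at 148 CPM (101 to 210) and 89.3 CPM (55.3 to 137), from 31 and 21 UMIs.

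The thick ascending limb-like class hid a difference between its clusters. In the cluster led by Egf, Wfdc15b and Umod, Il1f6 stood at 6.23 CPM (4.37 to 8.63) and 21.6 CPM (16.8 to 27.4), and in the cluster led by Enox1 and Slc12a1 at 26.4 CPM (23.4 to 29.7) and 19.8 CPM (17.8 to 22.0).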
